A study of Homo sapiens with 70 samples.

Results

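The genes described here are the 10 enzymes of purine and pyrimidine synthesis PPAT, GART, PAICS, ADSL, ATIC, IMPDH1, IMPDH2, CAD, DHODH and UMPS. They were taken by symbol as the transcript that the authors marked as representative, out of 20090 genes so marked among 32321 transcripts. The data were poly-A RNA-seq of 2 human hepatocellular carcinoma lines, Hep3B and Huh7, 24 h after addition of drug. GW3965 is a compound that activates the liver X receptors, nuclear receptors for oxysterols, and sorafenib is a multikinase inhibitor used against liver cancer. Hep3B had 9 libraries in each of 4 groups, which were DMSO (the vehicle), GW3965 at 5 µM, sorafenib at 2 µM, and both drugs at those doses. Huh7 had 8 libraries with DMSO, 8 labelled GW3965, 9 labelled sorafenib and 9 with both drugs, at the same doses. No genotype beyond the line was given, the cells were grown in multiwell plates without other cell types, and nothing says whether the libraries within a group are separate cultures or repeats of one, so p-values measure the spread between these libraries.

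Cells build purines on ribose phosphate. PPAT commits phosphoribosyl pyrophosphate to the pathway, GART, PAICS, ADSL and ATIC carry the growing ring to inosine monophosphate, and the IMP dehydrogenases IMPDH1 and IMPDH2 turn that product towards guanine nucleotides. Pyrimidines are built the other way round, with the ring made by CAD and DHODH before UMPS joins it to ribose phosphate and releases uridine monophosphate. GART, PAICS, ATIC, CAD and UMPS are multifunctional proteins that hold more than one activity of their pathway, and DHODH sits in the inner mitochondrial membrane. Dividing cells draw on both pathways for RNA and DNA, and several of these genes are textbook targets of MYC, which binds the E-box letters CACGTG.

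PPAT and PAICS are neighbours that start head to head, and the stretch between the PPAT start and the PAICS start at 56435752 is shown because the pair gave unlike values in a comparison below. PAICS also had annotated starts at 56410507 and 56436260. In RefSeq's GRCh38.p14 it spans chr4:56435616-56435751, 136 bases with 75.0% G and C, and is printed on the plus strand, on which PAICS is read. Capitals mark 3 copies of the GC box GGGCGG.
PPAT-PAICS interval: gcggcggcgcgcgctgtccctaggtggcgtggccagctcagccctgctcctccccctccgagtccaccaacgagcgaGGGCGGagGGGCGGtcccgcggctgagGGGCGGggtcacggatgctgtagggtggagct

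Windows from 250 bases before to 50 after a start were at hand for 8 members, 12 windows in all, and for neither ADSL nor IMPDH2. The E-box, which reads alike on both strands, was in 4 of the 12 windows, belonging to ATIC, DHODH, PAICS and PPAT, and in 7.26% of all 35116 windows. PPAT and PAICS share 1 copy, which lies outside the interval above. The distinct copies are shown with their flanks on the strand of the gene named, CACGTG in capitals, and the position of its first base from that gene's start.
ATIC, at -46, chr2:215312003-215312028: gccggcgggcCACGTGataagcccgg
ATIC, at 29, chr2:215312078-215312103: cctacctgcgCACGTGgtgccgccgc
PPAT, at -182, chr4:56435782-56435807: cggagatttcCACGTGcagcaaatac
DHODH, at -159, chr16:72008575-72008600: cgctactgcgCACGTGcacccaacca
The GC box, searched on both strands, was in 8 of the 12 windows against 45.0% of all windows. PPAT and PAICS share the copies marked in the interval above, and some windows of GART overlap, so the 12 windows are not independent. An E2F form, TTTGGCGC, was in 1 of the 3 windows of GART and in 0.652% of all windows. The other E2F form TTTCGCGC, the ATF4 element TTGCATCA and the NRF1 core were in none of the 12, and in 0.515%, 0.866% and 1.24% of all windows. These matches are letters in a window and no binding was measured.

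The files held the authors' 6 edgeR comparisons of a drug group with the DMSO group of its line, and no value of a single library was used. A gene was called at the authors' false discovery rate (FDR) under 0.05. The background of each comparison is the share of genes called among those at a mean of at least 2 CPM (read counts scaled to library size), a level all 10 members passed in every table with a nonzero count in all 70 libraries. The SE after ± was worked back from the authors' p-value, and so carries the spread between libraries only as their test saw it. It was never set below the median SE of genes of similar expression, and was that median where p was above 0.5. A printed SE can therefore be larger than the gene's own p-value implies. All 10 hepatocyte lineage genes checked were expressed in every table, ALB between 1713 and 9007 CPM, and 6 of 8 markers of blood, endothelial and stromal cells stayed at or below 0.886 CPM, COL1A1 and COL1A2 being the others. The labels of the Huh7 single-drug libraries went against 8 of 8 liver X receptor and ERK indicator genes. For the stress gene ATF4 the Huh7 log2 fold change was 0.495 ± 0.104 by the GW3965 label and 0.521 ± 0.077 by the sorafenib label. CHAC1 (2.07 ± 0.29 and 2.15 ± 0.17) and TRIB3 (1.27 ± 0.22 and 1.38 ± 0.09), also stress genes, lay close too. ATF3, another stress gene, was higher by the GW3965 label in Huh7 but higher with sorafenib in Hep3B. These differences between labels were not tested. In Hep3B 4 of 4 liver X receptor targets (ABCA1, ABCG1, FASN, SREBF1) and 4 of 4 ERK targets (DUSP6, EGR1, ETV4, SPRY4) had a higher fold change with GW3965 than with sorafenib, and in Huh7 0 of 4 and 0 of 4 did by the labels. Whether the 2 labels or the 2 tables were exchanged in Huh7 is not settled by anything else used here. ABCG1, a cholesterol exporter induced by liver X receptors, had a log2 fold change of 5.99 with GW3965 and 0.59 with sorafenib in Hep3B, but 0.75 in the Huh7 libraries labelled GW3965 and 3.82 in those labelled sorafenib, by the authors' deposited tables. DUSP6, a phosphatase induced by ERK signalling, had 0.33 and -2.40 in Hep3B, and -1.70 and -0.02 in Huh7, in the same order and from the authors' deposited tables. The Huh7 single-drug groups are therefore named by their labels throughout, a direction drawn from either is that of the labelled libraries, and comparisons of single drugs between the lines are given under both pairings.

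In DMSO, the members differed widely in level and the lines differed in which enzymes were most abundant. Per kilobase of transcript, ATIC (61.7 CPM per kb) and PAICS (61.0) were highest in Hep3B, followed by IMPDH2 (36.5), GART (33.0), ADSL (18.4), PPAT (13.5), CAD (10.3), UMPS (7.89), IMPDH1 (5.39) and DHODH (2.01). In Huh7 the order per kilobase was IMPDH2 (73.0), PAICS (44.2), ATIC (36.3), ADSL (20.2), GART (17.3), IMPDH1 (13.5), PPAT (11.6), UMPS (7.65), CAD (6.8) and DHODH (2.90). DHODH was the lowest in both lines. Without single libraries it cannot be said which neighbours in these orders differ beyond their spread. The lengths were those of GENCODE transcripts and may differ from the RefSeq transcripts that were counted, so the orders per kilobase depend on them. Both IMP dehydrogenases stood higher in Huh7, with IMPDH1 at 15.5 CPM in Hep3B and 38.9 in Huh7, and IMPDH2 at 60.0 and 120.0. GART stood higher in Hep3B, at 114.6 against 60.1 CPM, as did ATIC, at 136.6 against 80.3 CPM. UMPS was nearly level at 53.2 and 51.5 CPM. These levels are those implied by the deposited means and fold changes, the lines come from tables normalized separately, and the difference between lines was not tested.

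**Figure D1:**
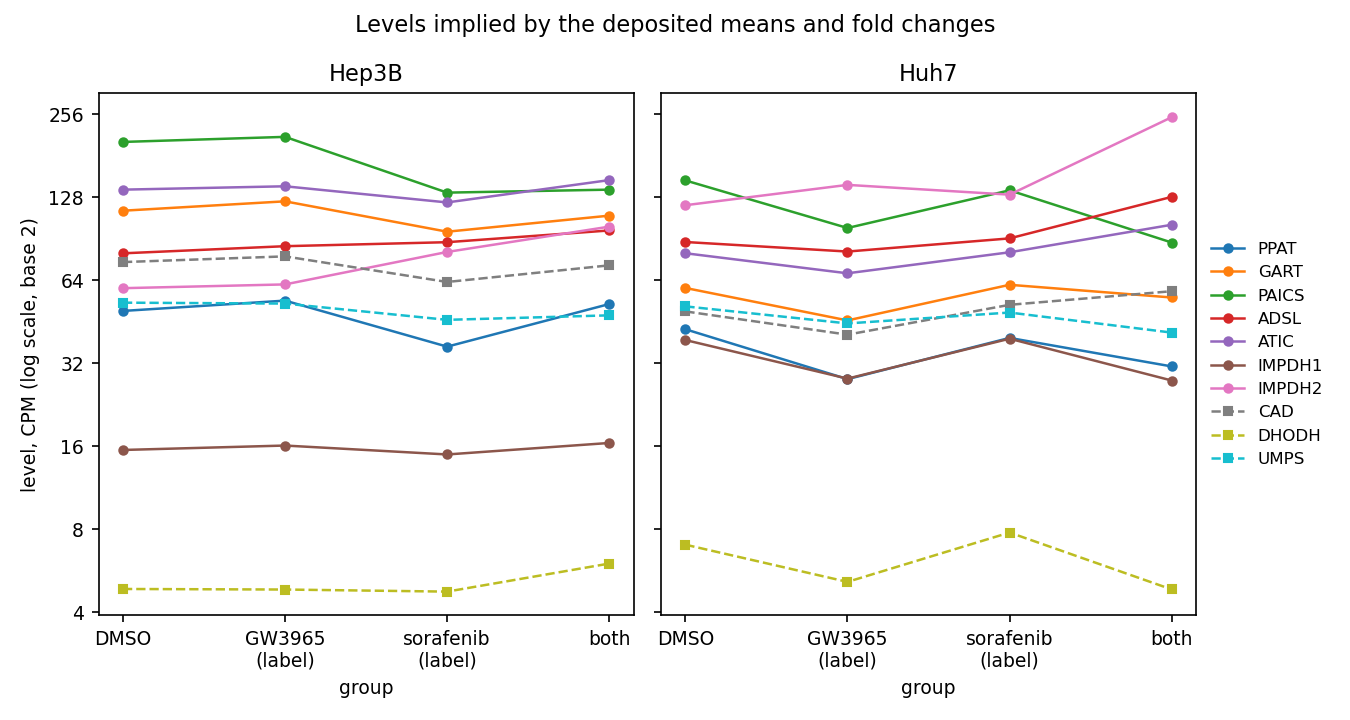
Level of each of the 10 enzymes in CPM (vertical axis, log scale of base 2) in the 4 groups of Hep3B (left) and Huh7 (right), as implied by the deposited means and fold changes. Circles with solid lines are purine enzymes and squares with dashed lines pyrimidine enzymes; IMPDH2 rises to 250.2 CPM in Huh7 with both drugs while PAICS falls to 87.9, and lines join groups only to guide the eye.

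None of the 10 enzymes was called in Hep3B with GW3965, where 7.4% of expressed genes were called higher and 3.82% lower by edgeR. At an unadjusted p under 0.05 only GART passed (log2 fold change 0.11 ± 0.05, FDR 0.219, in the authors' deposited table). The 10 fold changes ran from -0.01 (UMPS and DHODH) to 0.12 (PPAT) on the log2 scale, with a median of 0.06 against 0.00 over expressed genes. In the Huh7 libraries labelled sorafenib no member was called either, where 2.0% of expressed genes were called higher and 1.32% lower by edgeR. At an unadjusted p under 0.05 only IMPDH2 passed there (0.13 ± 0.07, FDR 0.404, in the authors' deposited table). The Huh7 values ran from -0.12 (PAICS) to 0.15 (DHODH), with a median of 0.03 against -0.03 over expressed genes.

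Sorafenib in Hep3B lowered 4 of the 10 enzymes and raised 1, against 27.9% of expressed genes called lower and 23.6% higher. The 4 were PPAT, GART and PAICS of the purine pathway, and UMPS at the end of the pyrimidine pathway. PAICS, which carries out a carboxylation and the ligation after it, went from 203.5 CPM in DMSO to 133.3 CPM, a fall of 0.61 ± 0.11 on the log2 scale (FDR 1.39e-10 in the authors' deposited table). PPAT, the committed step, went from 49.6 to 36.8 CPM and fell by 0.43 ± 0.10 (FDR 2.84e-05 in the authors' deposited table). GART (114.6 to 96.2 CPM) fell by 0.25 ± 0.10 with an FDR of 0.0233, and UMPS (53.2 to 46.1 CPM) fell by 0.21 ± 0.10 with an FDR of 0.0344, both in the authors' deposited table. Neither of these last falls passed an FDR of 0.01. IMPDH2 went the other way, from 60.0 to 81.2 CPM, and rose by 0.44 ± 0.10 (FDR 1.34e-05 in the authors' deposited table). The other 5, ADSL, ATIC, IMPDH1, CAD and DHODH, were not called, with values from -0.24 ± 0.14 (CAD) to 0.13 ± 0.10 (ADSL). The median of the 10 was -0.18, against -0.03 over expressed genes.

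The Huh7 libraries labelled GW3965 showed 7 of the 10 enzymes lower than DMSO and none higher, against 17.8% of expressed genes called lower and 13.6% higher. PPAT went from 42.6 to 28.1 CPM and fell by 0.60 ± 0.11 (FDR 8.53e-07 in the authors' deposited table). PAICS went from 147.6 to 99.2 CPM and fell by 0.57 ± 0.10 (FDR 1.7e-06 in the authors' deposited table). IMPDH1 (38.9 to 28.2 CPM) fell by 0.46 ± 0.12, and DHODH, which oxidises dihydroorotate, fell by 0.45 ± 0.14 from 7.04 to 5.16 CPM, with FDRs of 0.00164 and 0.00169 in the authors' deposited table. GART fell by 0.39 ± 0.10, CAD, the enzyme that opens pyrimidine synthesis, by 0.28 ± 0.10, and ATIC by 0.24 ± 0.10, with FDRs of 7.58e-05, 0.00215 and 0.00875 in the authors' deposited table. UMPS (-0.21 ± 0.10, FDR 0.0587) and ADSL (-0.12 ± 0.10, FDR 0.367) were not called in the authors' deposited table. IMPDH2 stood apart in sign at 0.25 ± 0.13, which was not called (FDR 0.165 in the authors' deposited table). The median of the 10 was -0.34, against -0.04 over expressed genes. PPAT, GART and PAICS were called lower both here and in Hep3B with sorafenib, comparisons that share no library; 11.1% of the genes expressed in both were called lower in both.

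**Figure D2:**
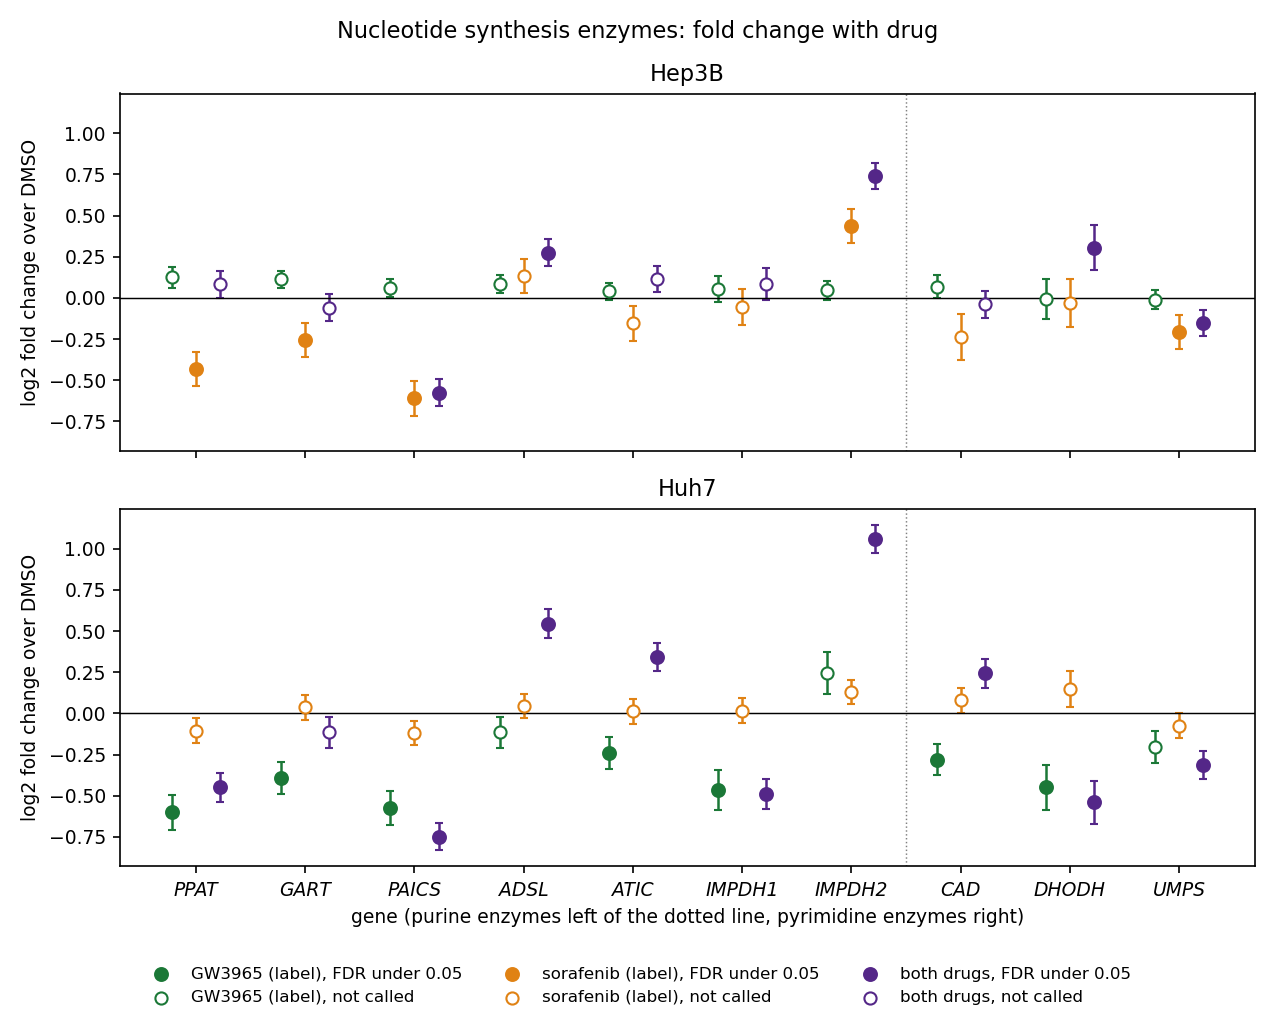
Log2 fold change over DMSO of each enzyme (vertical axis) in Hep3B (top) and Huh7 (bottom), with green for libraries labelled GW3965, orange for those labelled sorafenib and purple for both drugs. Bars are 1 SE worked back from the authors' p-value, never below the median SE of genes of similar expression. Filled points were called at an FDR under 0.05. IMPDH2 with both drugs is the highest point in each line (0.74 and 1.06) and PAICS with both drugs the lowest in Huh7 (-0.75).

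With both drugs in Hep3B 3 of the 10 enzymes were called higher and 2 lower, both below the shares of expressed genes called, 36.7% higher and 35.4% lower. IMPDH2 rose from 60.0 to 100.3 CPM, by 0.74 ± 0.08 on the log2 scale (FDR 4.76e-23 in the authors' deposited table). ADSL, which releases fumarate at 2 points of purine synthesis, rose from 80.3 to 97.2 CPM, by 0.28 ± 0.08 (FDR 0.00042 in the authors' deposited table). DHODH rose from 4.87 to 6.02 CPM, by 0.31 ± 0.14 (FDR 0.0103 in the authors' deposited table), and did not pass 0.01. PAICS fell from 203.5 to 136.6 CPM, by 0.57 ± 0.08 (FDR 2.78e-12 in the authors' deposited table). UMPS fell by 0.15 ± 0.08, from 53.2 to 47.8 CPM, at an FDR of 0.0405 in the authors' deposited table that did not pass 0.01. PPAT, whose start faces a start of PAICS across the interval printed above, was not called and stood at 52.6 CPM against 49.6 in DMSO (0.08 ± 0.08, FDR 0.388 in the authors' deposited table). The difference between the 2 genes was not tested. GART, ATIC, IMPDH1 and CAD ran from -0.06 (GART) to 0.11 (ATIC) and were not called. The median of the 10 was 0.08 against 0.01 over expressed genes.

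Huh7 cells with both drugs had 9 of the 10 enzymes called, 4 higher and 5 lower, against 35.5% of expressed genes called higher and 26.1% lower. IMPDH2 had the largest change of any member in any table, from 120.0 to 250.2 CPM, a rise of 1.06 ± 0.08 on the log2 scale (FDR 2.85e-42 in the authors' deposited table). ADSL rose from 88.2 to 128.6 CPM, by 0.54 ± 0.09 (FDR 4.62e-09 in the authors' deposited table). ATIC, which closes the purine ring, rose from 80.3 to 101.9 CPM, by 0.34 ± 0.08, and CAD rose from 49.4 to 58.5 CPM, by 0.24 ± 0.09, with FDRs of 9.45e-05 and 0.00874 in the authors' deposited table. PAICS fell from 147.6 to 87.9 CPM, by 0.75 ± 0.08, which is 40.5% less (FDR 3.58e-20 in the authors' deposited table). DHODH fell by 0.54 ± 0.13, from 7.04 to 4.85 CPM, at an FDR of 6.51e-05 in the authors' deposited table. IMPDH1 fell by 0.49 ± 0.09, from 38.9 to 27.8 CPM, while its paralogue IMPDH2 rose (FDR 3.13e-07 for IMPDH1 in the authors' deposited table). PPAT fell by 0.45 ± 0.09, from 42.6 to 31.2 CPM, and UMPS fell by 0.32 ± 0.09, from 51.5 to 41.4 CPM, with FDRs of 3.71e-09 and 8.13e-05 in the authors' deposited table. GART, at 55.5 CPM against 60.1, was the member not called (-0.11 ± 0.09, FDR 0.373 in the authors' deposited table). Each pathway held enzymes of both directions, in a comparison where expressed genes were also widely called both ways. The purine enzymes split 3 to 3 and the pyrimidine enzymes 1 to 2, and the median of the 10 was -0.22 against 0.07 over expressed genes.

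Whether both drugs differed from a single drug was tested by an approximate 2-sided normal test of the difference of log2 fold changes, with Benjamini-Hochberg adjustment over all expressed genes. There were 9 such contrasts and 90 tests of members. Within a line the tables share the DMSO libraries, so the SE used is larger than the true one. In Hep3B both drugs exceeded sorafenib alone for 1 member and fell short for none, against 16.6% and 14.5% of expressed genes. That member was PPAT, at 52.6 CPM with both and 36.8 CPM with sorafenib, a difference of 0.51 ± 0.13 (adjusted p 0.000852 by the approximate test). For PAICS, at 136.6 and 133.3 CPM, the difference was 0.04, and its sign turned (-0.00612) once each table was centred on its median. Against GW3965 alone 1 member was higher and 1 lower in Hep3B, against 30.7% and 33.2% of expressed genes. These were IMPDH2, higher by 0.70 ± 0.10, and PAICS, at -0.64 ± 0.10 (adjusted p 1.72e-11 and 2.98e-10 by the approximate test).

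In Huh7, both drugs against the libraries labelled sorafenib gave 3 members higher and 4 lower, against 29.1% and 18.0% of expressed genes. IMPDH2 was higher by 0.93 ± 0.11 (adjusted p 9.82e-16), ADSL by 0.50 ± 0.11 (7e-05) and ATIC by 0.33 ± 0.11 (0.00845), the last not being called once tables were centred (adjusted p 0.0687). DHODH was lower, at -0.69 ± 0.17 (adjusted p 0.000229 by the approximate test), as were PAICS at -0.63 ± 0.11, IMPDH1 at -0.50 ± 0.12 and PPAT at -0.34 ± 0.12. Against the libraries labelled GW3965, 4 members were higher with both drugs and none lower, where 20.4% of expressed genes were higher and 9.61% lower. IMPDH2 was higher by 0.82 ± 0.15, ADSL by 0.66 ± 0.13, ATIC by 0.58 ± 0.13 and CAD by 0.52 ± 0.13, with adjusted p-values from 1.94e-06 to 0.000533. CAD and ATIC were called lower in the libraries labelled GW3965 and higher with both drugs.

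**Figure D3:**
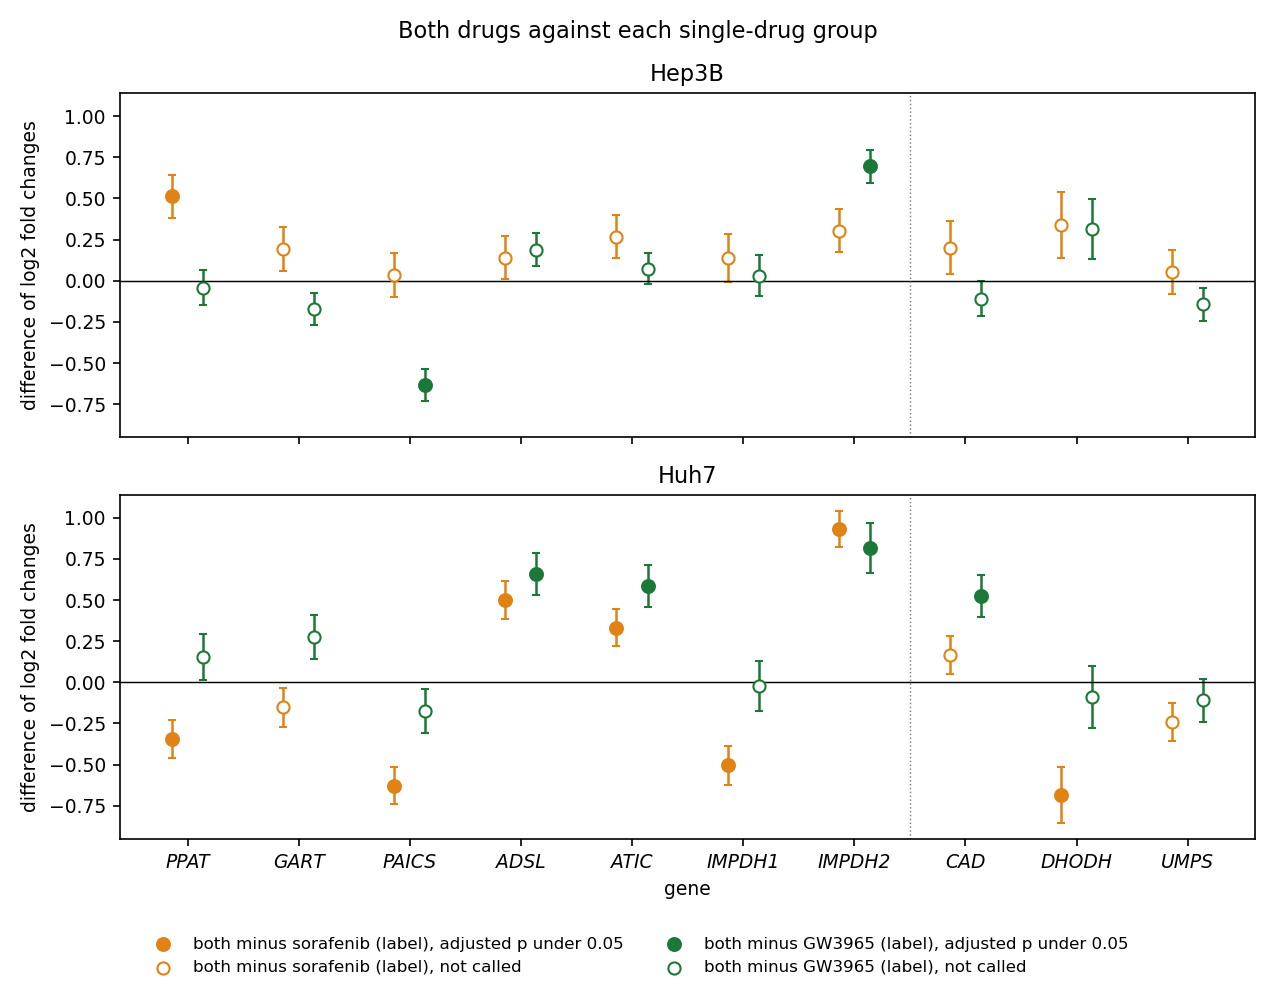
Difference of log2 fold changes (vertical axis) between both drugs and the libraries labelled sorafenib (orange) or GW3965 (green) for each enzyme, in Hep3B (top) and Huh7 (bottom). Bars are 1 SE and filled points had an adjusted p under 0.05. In Huh7 IMPDH2, ADSL and ATIC are filled points above 0 against either label, and in Hep3B PPAT is the filled point against sorafenib.

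The fold change with both drugs was also set against the sum of the single-drug fold changes. In Hep3B 1 member lay above the sum and none below, against 10.8% and 11.4% of expressed genes. It was PPAT, by 0.39 ± 0.15 (adjusted p 0.0399), and this call was lost with tables centred (adjusted p 0.0674) or with all genes in the adjustment (0.0650). IMPDH2 exceeded the sum in Hep3B by 0.26, with a 95% interval of -0.02 to 0.54 (adjusted p 0.183). In Huh7 4 members lay above the sum and none below, against 15.3% and 5.9% of expressed genes, a contrast that takes both labelled groups and so does not depend on which label is which. These were IMPDH2 by 0.69 ± 0.17 (adjusted p 0.000863), ADSL by 0.62 ± 0.15 (0.00085), ATIC by 0.57 ± 0.15 (0.00166) and CAD by 0.44 ± 0.15 (0.0205), CAD not being called once tables were centred (adjusted p 0.143). PAICS lay near its sum in both lines, at -0.03 with a 95% interval of -0.31 to 0.26 in Hep3B and at -0.06 with an interval of -0.36 to 0.24 in Huh7.

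The response of the lines to both drugs differed for 5 members, taken as Hep3B minus Huh7, 3 higher and 2 lower, against 17.7% and 26.3% of expressed genes. DHODH differed most, at 0.85 ± 0.19 (adjusted p 5.59e-05), having risen in Hep3B and fallen in Huh7. IMPDH1 differed by 0.57 ± 0.13 (adjusted p 0.000111) and PPAT by 0.53 ± 0.12 (6.22e-05), both called lower in Huh7 and not called in Hep3B. IMPDH2 rose less in Hep3B, by -0.32 ± 0.12 (adjusted p 0.0166), and CAD stood lower, at -0.28 ± 0.12 (0.0397), which was not called once tables were centred (0.102). PAICS fell in both lines and the difference was 0.17, with a 95% interval of -0.05 to 0.40 (adjusted p 0.222). By label, the GW3965 response was higher in Hep3B for 6 members and lower for none, against 14.7% and 10.1% of expressed genes, and the sorafenib response higher for 1 and lower for 2, against 17.7% and 18.2%. None of these 9 calls was kept when the Huh7 groups were taken under the other label, a pairing added after the data were seen. Hep3B with GW3965 against the Huh7 libraries labelled sorafenib gave 0 members called either way by the approximate test, against 1.51% of expressed genes higher and 0.22% lower, and 1 member at an unadjusted p under 0.05, PPAT (0.23, 95% interval 0.03 to 0.43). Hep3B with sorafenib against the Huh7 libraries labelled GW3965 also gave 0 by that test, against 9.64% higher and 9.72% lower, and 2 members at an unadjusted p under 0.05, IMPDH1 (0.41, 95% interval 0.09 to 0.73) and DHODH (0.42, 0.03 to 0.81). PAICS differed there by -0.04, with a 95% interval of -0.33 to 0.25, in place of -0.49 by the labels.

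Over the 6 tables PAICS was called lower 4 times and higher never, and PPAT and UMPS lower 3 times and higher never. IMPDH2 was called higher 3 times and lower never, and ADSL higher 2 times and lower never. GART and IMPDH1 were called lower 2 times, DHODH lower 2 times and higher 1 time, and ATIC and CAD 1 time each way. The members closest to each other in profile were ATIC and CAD, whose 6 log2 fold changes differed by a root mean square of 0.089, and IMPDH1 and DHODH, at 0.110. Farthest apart were PAICS and IMPDH2, at 1.07. PPAT and PAICS differed by 0.306 and IMPDH1 and IMPDH2 by 0.773. The median profile of the 10 lay closest to GART (0.084) and farthest from IMPDH2 (0.682). Outside the lists used here, the 5 expressed genes nearest that median profile were HSPD1 (root mean square difference 0.054), a mitochondrial chaperonin, TAF13 (0.055), YWHAG (0.059), SPATA5 (0.061) and FTSJ1 (0.062). Tables of one line share their DMSO libraries, so these distances describe the tables and carry no test.

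The 10 genes had 24 transcripts in the tables, and 5 genes had several. The widest spread between transcripts of a gene was 0.14 on the log2 scale, for GART with sorafenib in Hep3B, where its 4 transcripts ran from -0.39 to -0.25 and all were called. With both drugs in Hep3B 1 of the 4 GART transcripts was called, at -0.20, and this was the single gene and comparison in which transcripts differed in their call. The transcripts of a gene overlap, and reads were shared among them in a way the sources used here do not give.

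The purine steps outside the 10 moved in both directions. Among 8 such genes, 2 of 7 expressed were called higher and 3 lower in Hep3B with both drugs (median -0.08), and 2 of 6 higher and 2 lower in Huh7 (median -0.03). These counts lie near the shares of all expressed genes, 36.7% higher and 35.4% lower in Hep3B and 35.5% and 26.1% in Huh7. PFAS, which makes the substrate for the last activity of GART, fell by 0.90 ± 0.13 in Hep3B and by 0.76 ± 0.10 in Huh7 with both drugs, from the authors' deposited tables. PRPS2, a synthetase of phosphoribosyl pyrophosphate, fell by 1.18 ± 0.10 in Hep3B with both drugs in the authors' deposited table. PRPSAP1, a protein associated with the synthetase, rose by 0.60 ± 0.09 in Hep3B and by 0.30 ± 0.10 in Huh7. PRPS1 fell by 0.33 ± 0.09 in Hep3B and by 0.62 ± 0.09 in Huh7, all from the authors' deposited tables. In Huh7 ADSS, which turns inosine monophosphate towards adenine nucleotides, rose by 0.47 ± 0.09 in the authors' deposited table. With sorafenib in Hep3B 1 of 8 was called higher and 4 lower, against 23.6% and 27.9% of expressed genes. In the Huh7 libraries labelled GW3965 1 of 6 was higher and 4 lower, against 13.6% and 17.8%. GW3965 in Hep3B gave 1 call, a lower PRPSAP1 (-0.14 in the authors' deposited table), where 3.82% of expressed genes were lower and 7.4% higher. The Huh7 libraries labelled sorafenib gave none, where 1.32% were lower and 2.0% higher.

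Downstream, the genes of CTP and deoxynucleotide synthesis moved one way with both drugs, 10 of 12 lower and none higher in each line, with medians of -0.71 in Hep3B and -0.70 in Huh7. Among all expressed genes, 35.4% were called lower and 36.7% higher in Hep3B with both drugs, and 26.1% and 35.5% in Huh7. RRM2, the small subunit of ribonucleotide reductase, fell by 2.63 ± 0.11 in Hep3B and by 2.48 ± 0.08 in Huh7 in the authors' deposited tables. TYMS, thymidylate synthase, fell by 1.57 ± 0.08 in Hep3B in the authors' deposited table. Sorafenib in Hep3B lowered 8 of the 12, against 27.9% of expressed genes, and the Huh7 libraries labelled GW3965 had 6 of 12 lower, against 17.8%. In each of the remaining comparisons 1 of 12 was lower, against 3.82% in Hep3B with GW3965 and 1.32% in the Huh7 libraries labelled sorafenib. None of the 12 was higher in any comparison. S phase and proliferation genes were lower at the same time, 16 of 18 in Hep3B, where 1 (CDT1, a licensing factor of replication origins) was higher, and 17 of 18 in Huh7, where none was, with both drugs, with medians of -1.27 and -1.06. In Hep3B 17 of the 18 were lower with sorafenib (median -0.997), and in the Huh7 libraries labelled GW3965 11 of 18 (median -0.49). With GW3965 in Hep3B 5 of 18 were lower (median -0.10), against 3.82% of expressed genes. The Huh7 libraries labelled sorafenib had 1 of 18 lower (median -0.03), against 1.32%. The part of proliferation in the values of the 10 enzymes was not tested.

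**Figure D4:**
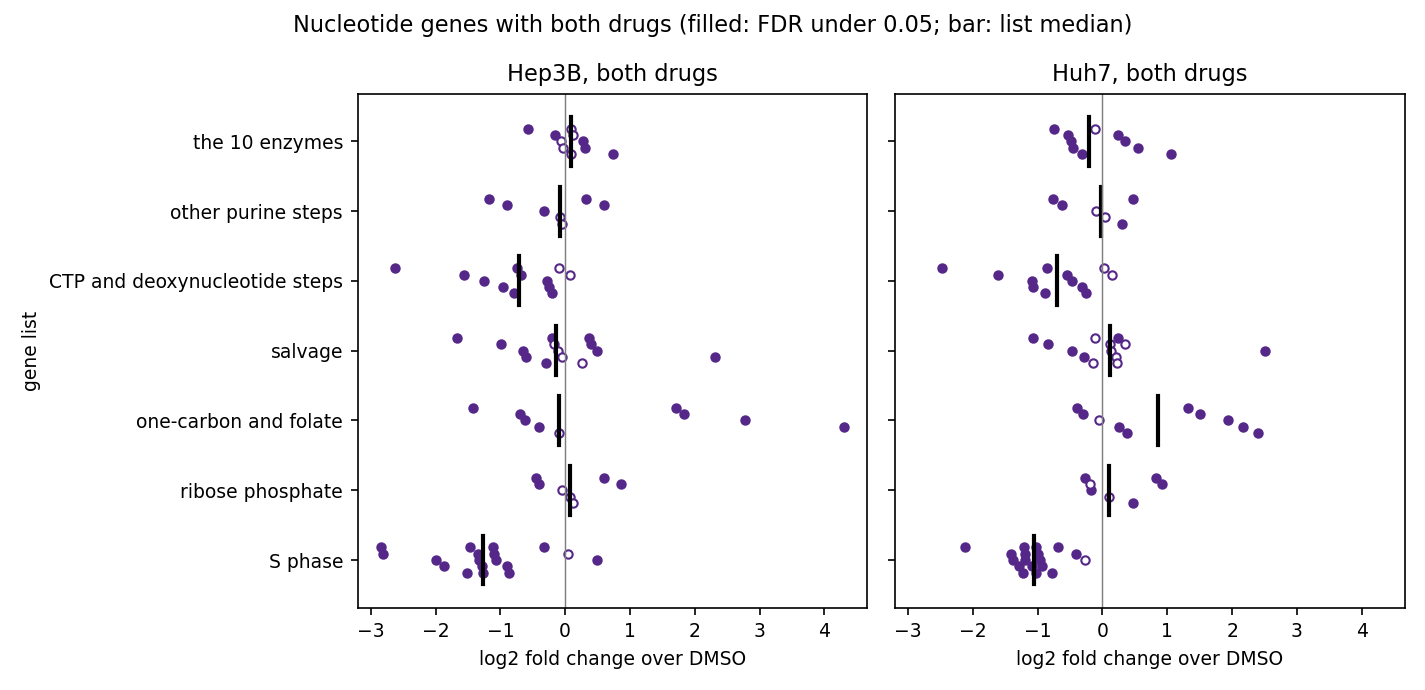
Log2 fold change over DMSO with both drugs (horizontal axis) for every expressed gene of 7 lists, in Hep3B (left) and Huh7 (right), with filled points called at an FDR under 0.05 and a bar at each list's median. The 10 enzymes lie on both sides of 0, while the CTP and deoxynucleotide list (medians -0.71 and -0.70) and the S phase list (-1.27 and -1.06) lie mostly below it.

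Among the genes that feed the pathways, one-carbon and folate genes had 4 of 9 called higher and 4 lower in Hep3B with both drugs (median -0.10), and 7 of 10 higher and 2 lower in Huh7 (median 0.85). The background for this and the next lists with both drugs is 36.7% higher and 35.4% lower in Hep3B, and 35.5% and 26.1% in Huh7. MTHFD2, a mitochondrial enzyme of formate production, rose by 2.77 ± 0.08 in Hep3B and by 2.17 ± 0.08 in Huh7 in the authors' deposited tables. Ribose phosphate genes had 2 of 7 higher and 2 lower in Hep3B and 3 of 7 higher and 2 lower in Huh7. With GW3965 alone in Hep3B, where no member was called, 3 of those 7 were higher, against 7.4% of expressed genes. PGD of the oxidative pentose phosphate branch rose there by 0.51 ± 0.05 in the authors' deposited table. Genes of glutamine and aspartate supply had 3 of 8 higher and 2 lower in Hep3B with both drugs and 4 of 8 higher and 3 lower in Huh7. ASNS, which uses glutamine and aspartate, rose by 2.83 ± 0.09 in Hep3B and by 3.03 ± 0.08 in Huh7, by the authors' deposited tables.

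Salvage genes, which rebuild nucleotides from bases and nucleosides, had 4 of 14 higher and 6 lower in Hep3B with both drugs and 2 of 13 higher and 4 lower in Huh7. The counts of this paragraph stand against 36.7% of expressed genes higher and 35.4% lower in Hep3B, and 35.5% and 26.1% in Huh7. No list was tested against those shares. UPP1, uridine phosphorylase, rose by 2.31 ± 0.10 in Hep3B and by 2.51 ± 0.18 in Huh7, and PNP, purine nucleoside phosphorylase, fell by 1.66 ± 0.09 and 0.84 ± 0.10 in the authors' deposited tables. Breakdown genes had 3 of 10 higher and 7 lower in Hep3B and 3 of 12 higher and 5 lower in Huh7, with GDA, guanine deaminase, falling by 1.93 ± 0.18 and 1.56 ± 0.16 in the authors' deposited tables. XDH, which makes uric acid, rose by 2.95 ± 0.17 in Huh7 in the authors' deposited table. Of 3 expressed nucleoside transporters, 2 were higher in Hep3B and 1 in Huh7, and none was lower. MYC rose by 1.44 in Hep3B and by 1.71 in Huh7 with both drugs, and MYCN fell by 1.63 ± 0.17 and 2.5 ± 0.18 in the authors' deposited tables. The list of MYC, MAX and their partners had 7 of 12 higher and 3 lower in Hep3B and 6 of 12 higher and 2 lower in Huh7. Of the 4 members with an E-box in a window, PAICS was called lower in both lines with both drugs, PPAT lower in Huh7, ATIC higher in Huh7, and DHODH higher in Hep3B and lower in Huh7. No relation of these letters to the changes was tested.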

How the data were processed

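Poly-A RNA-seq libraries (70) fell into 8 groups by their labels. Per the submitters' processing notes edgeR was used, with builds hg19 and GRCh37. How reads were aligned, counted and normalized, and which edgeR test was run, remain not given in the sources used here. Each table deposited by the authors lists, per the file headers, the log2 fold change over DMSO of every RefSeq transcript beside its mean level in log2 CPM, a p-value and an FDR. Benjamini-Hochberg adjustment of the deposited p-values over all transcripts returned the deposited FDR.

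No single-library values were used, so depth, replicate spread and pairing could not be examined. The SE is the size of the log2 fold change over the normal score of its p, never below the median of its bin of expression (20 bins), and that median where p was above 0.5. Differences of fold changes were tested with it, among genes at 2 CPM or more over the tables compared, and the step was tested on simulated data. Group levels come from the mean and the fold change, with the 3 tables of a line averaged for DMSO. Those tables differed by a constant of up to 0.080 in size (the median log2 difference between tables was -0.080 in Hep3B and 0.045 in Huh7). Levels per kilobase used GENCODE transcript lengths. Promoter windows were RefSeq's GRCh38.p14. No coordinates of the deposited files' builds were used.

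The members and all gene lists were chosen with earlier results of these data known, as was the rule for named genes. It takes all 10 members, up to 3 called genes of each other list with the largest change per comparison, 7 genes named in any case (ABCG1, SREBF1, DUSP6, SPRY4, MYC, ATF4, MKI67), and the 5 genes nearest the members' median profile. ALB, COL1A1, COL1A2, the label check genes and CDT1 were named, and the GC box added, after the data were seen. Every gene of every list matched a symbol in the tables. Alternatives were an FDR of 0.01, centring on the median of expressed genes, adjustment over representative transcripts alone, the transcript of highest mean, no floor on the SE, and all genes in place of expressed ones. Taking the Huh7 single-drug groups under the other label was added after the data were seen. Python 3.11.15, pandas 2.3.3, numpy 2.4.6 and SciPy 1.17.1 were used. Some genes that the naming rule takes are left out of the text.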

Additional observations from a re-analysis of the deposited data

Results flagged for a closer look

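The response to a drug, taken as the log2 fold change in Hep3B minus that in Huh7, differed between the lines for 14 pairs of member and comparison, by the approximate test with adjustment over all expressed genes. With both drugs these were DHODH (0.85), IMPDH1 (0.57), PPAT (0.53), IMPDH2 (-0.32) and CAD (-0.28), against 17.7% of expressed genes higher and 26.3% lower. For the libraries labelled GW3965 they were PPAT (0.73), PAICS (0.63), IMPDH1 (0.52), GART (0.50), CAD (0.35) and ATIC (0.28), against 14.7% higher and 10.1% lower. For the libraries labelled sorafenib they were PAICS (-0.49), PPAT (-0.33) and IMPDH2 (0.31), against 17.7% higher and 18.2% lower. The 9 values by label compare Hep3B libraries with Huh7 libraries whose labels went against the liver X receptor and ERK indicator genes, so they are differences between labelled groups. With the Huh7 groups taken under the other label 0 of the 9 was called. Expressed genes were then called at 1.51% higher and 0.22% lower for GW3965, and at 9.64% and 9.72% for sorafenib. The GW3965 values then were PPAT 0.23, PAICS 0.18, IMPDH1 0.04, GART 0.07, CAD -0.01 and ATIC 0.03, and the sorafenib values were PAICS -0.04, PPAT 0.17 and IMPDH2 0.19.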

How the results depend on the processing

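Of 620 values of single members recomputed under the alternatives, 574 kept their direction and call. Another 29 kept their direction and lost a call, 8 gained a call and 9 changed sign. The 9 include CAD by the GW3965 label and PPAT by the sorafenib label, which also lost a call. Of the 9, 8 came with the pairing of Hep3B and the Huh7 libraries under the other single-drug label, added after the data were seen. It left 0 members called in the line differences by the GW3965 label (6 before) and by the sorafenib label (3 before). The shares of expressed genes called were then 1.51% higher and 0.22% lower, and 9.64% and 9.72%, in that order. By the GW3965 label CAD turned to -0.0106 and DHODH to -0.153, and by the sorafenib label PPAT turned to 0.171, GART to 0.138, ATIC to 0.0875, IMPDH1 to 0.411, CAD to 0.0406 and DHODH to 0.417, none called. At a threshold of 0.01, the members called went from 5 to 3 for sorafenib and from 5 to 3 for both drugs in Hep3B, from 1 to 0 for the departure from the sum of single drugs in Hep3B, from 3 to 1 for the line difference by the sorafenib label and from 5 to 3 for that with both drugs. Without a floor on the SE, both drugs against sorafenib in Hep3B had 3 members called in place of 1. With all genes in the adjustment, the Hep3B departure had 0 and the line difference by the sorafenib label 1. Centring each table on its median left the Hep3B departure with 0 and turned the PAICS difference between both drugs and sorafenib in Hep3B to -0.00612, from 0.04 with no call in either case. The cause of these changes was not tested beyond what each setting does. Adjustment over representative transcripts alone and the transcript of highest mean changed no member's call. No paired analysis was possible because the tables hold comparisons of groups and no single libraries. Depth per library is unknown, and the approximate test is only as good as the authors' p-values.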
